A study of Drosophila melanogaster with 2 samples.

Results

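The Jumonji C (JmjC) histone demethylase genes of Drosophila melanogaster were examined here as mRNAs recovered with Lsd1, the other kind of histone demethylase in this organism. All 8 genes were found among the 17720 rows of each table: 7 under the symbols lid, Utx, Kdm2, Kdm4A, Kdm4B, NO66 and Jarid2, and Kdm3 under its older symbol JHDM2, matched through a RefSeq synonym. The list was set by gene name, with earlier results of these data known. The data came from RNA immunoprecipitation (RIP), in which an antibody pulls a protein out of a lysate together with the RNA that it carries, followed by RNA sequencing. The Lsd1-RIP group received an anti-Lsd1 antibody. The control, titled IgG-RIP, received an antibody that its label describes as raised against GFP. Both reactions were portions of ovarian lysate of the wild-type strain Oregon-R, from females labelled as under 12 hours after eclosion, with about 200 females per RIP experiment, pooled. Each group held 1 library, with no replicate, so the groups could not be tested against each other and no p-values are printed. No input library was used here.

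JmjC demethylases remove methyl groups from histone lysines by an oxidation that needs iron and 2-oxoglutarate. Unlike the flavin-dependent Lsd1, enzymes of this kind can act on trimethylated lysines. Members differ in the mark that they remove. The lid enzyme (KDM5) acts on H3K4, Utx on H3K27, Kdm3 on H3K9, and the KDM4 enzymes on H3K9 and H3K36. Kdm2 belongs to the KDM2 group, which acts mainly on H3K36 in mammals and, in flies, is found in a Polycomb-group complex. Human NO66 is both a histone demethylase and a hydroxylase of a ribosomal protein. Jarid2 carries a JmjC domain but in mammals has no demethylase activity and serves as a subunit of the Polycomb complex PRC2.

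The values are FPKM, fragment numbers scaled to transcript length and library size, each deposited with a lower and an upper bound. Approximate fragment numbers, derived from those bounds, came to 2494964 in the Lsd1-RIP library and 2661722 in the IgG-RIP library. Without ribosomal RNA loci they were 1201797 in the Lsd1-RIP and 1039524 in the IgG-RIP library. Each ratio is on the log2 scale, Lsd1-RIP over IgG-RIP, after 1 was added to both FPKM values, and the intervals span 2 standard errors either way. These intervals come from the deposited bounds alone and cover counting error and, at most, uncertainty of assignment, not the spread between repeated precipitations. Over the 6025 eligible genes, meaning genes estimated in each library whose FPKM averaged at least 1, the median log2 ratio was 0.32 (middle 50%, 0.13 to 0.52). A member at that value is therefore no higher than the typical gene. The ovary label was met by its germline markers: vas, nos, osk, orb and aub all had at least 5.84 FPKM in each library. Of the list fixed for the ovarian soma, tj, Fas3 and eya had at least 1.54 FPKM in each library. Its other gene, piwi, is also expressed in the germline. Fat body markers (Fbp1, Fbp2, Lsp2, apolpp) were at 0.408 FPKM or less and neuronal markers (elav, nSyb, brp) at 0.204 or less. Fbp2 was listed at 0 in both libraries, and nSyb and brp in the IgG-RIP library. Muscle markers (Mhc, up, Mlc2, wupA) were present and summed to 48.0 FPKM in the Lsd1-RIP library, against 70.3 in the IgG-RIP library, with 3 of the 4 lower. The markers also differed in ratio: the 5 germline genes had a median log2 ratio of 0.84, all above the all-gene median and 2 of them past 2-fold (nos at 1.34 and orb at 1.04). The median was 0.33 for the 4 genes of the ovarian soma list and -0.36 for the 4 muscle genes. By approximate fragments, scaled by the library sums without ribosomal RNA, vas, osk, orb and aub were at 0.03, -0.02, 0.05 and -0.0034. The all-gene median on that scale was -0.0046. There nos was at 0.93 alone and 0.26 with the fragments of the overlapping CG11779 and Nsun5 added. For osk the approximate fragments were 1752 in the Lsd1-RIP and 1539 in the IgG-RIP library, at 165 and 91.9 FPKM. For orb they were 899 and 754, at 28.3 and 13.2 FPKM. The fragments of osk and orb thus did not follow their FPKM, and how far they hold as counts was not tested. The part of these cell types in the results was not tested. In such bulk material, fewer cells of a type and less RNA per cell cannot be told apart.

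Of the 8 demethylase mRNAs, 7 had a higher FPKM in the Lsd1-RIP library, and Kdm3 did not. The deposited bounds of the 2 libraries did not overlap for the 7, all of them eligible. Kdm3, with a mean FPKM of 0.918, fell under the minimum. Bounds apart in this direction were found for 36.1% of all eligible genes. None of the 7 reached a log2 ratio of 1, called 2-fold here, a mark that 2.12% of eligible genes passed upward and 0.697% downward. The pseudocount of 1 pulls in the ratios of such low FPKM. As plain ratios of FPKM, 4 members (Utx, Kdm4A, Kdm4B and Jarid2) were at 2-fold or more, against 9.1% of eligible genes. With a pseudocount of 0.1, Kdm4B and Jarid2 passed the mark, against 7.9% of eligible genes. The 7 log2 ratios ran between 0.42 and 0.88 with a median of 0.72, which is 0.39 above the all-gene median. By FPKM this was below the 0.84 of the germline markers. By fragments taken alone, vas, osk, orb and aub were lower than each of the 7, and nos was higher. The fragment values of osk and orb carry the reservation given above. By FPKM all 7 lay above the all-gene median, and for 4 of the 7 (lid, Utx, Kdm4B and Jarid2) the interval did too, against 17.5% of eligible genes. Summed over the 8 members, the FPKM came to 37.2 in the Lsd1-RIP library and 21.7 in the IgG-RIP library, and NO66 made up 39.2% of the Lsd1-RIP sum and 45.9% of the IgG-RIP sum.

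**Figure D1:**
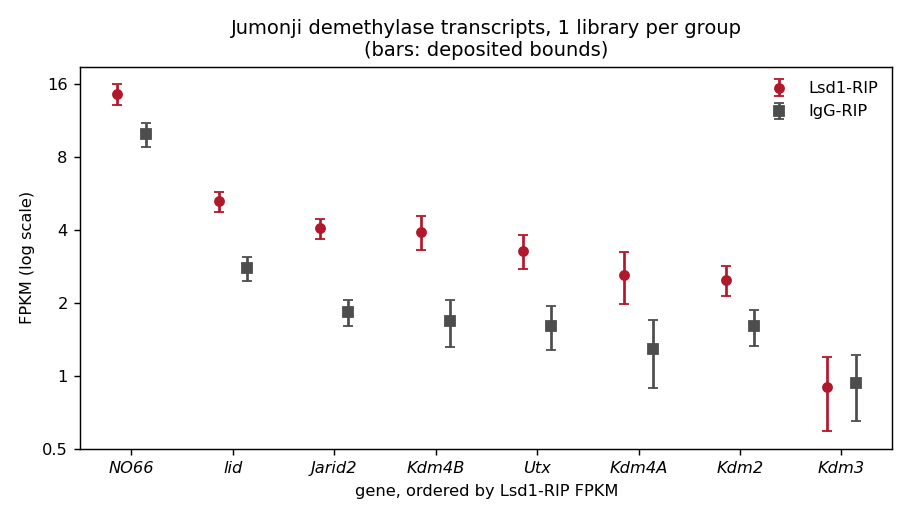
FPKM of the 8 demethylase genes (log scale) in the Lsd1-RIP library (circles) and the IgG-RIP library (squares), 1 library each. Bars are the deposited bounds. They stand apart for every gene but Kdm3, and NO66 is the most abundant in both libraries.

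The H3K4 demethylase gene lid (dm6, 2L:5989400-5999501, RefSeq symbol Kdm5) was the second most abundant member. It had 5.27 FPKM (bounds 4.78 to 5.77) in the Lsd1-RIP library and 2.78 FPKM (2.46 to 3.11) in the IgG-RIP library. The Lsd1-RIP level was 1.89-fold higher (interval 1.63 to 2.20), a log2 ratio of 0.73 (0.56 to 0.90) on 449 approximate fragments in the Lsd1-RIP and 291 in the IgG-RIP library. No other listed locus overlaps that of lid, so its fragments are not open to division with a neighbour.

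Utx (2L:10272325-10278811), the gene of the H3K27 demethylase, lay on the same chromosome arm. Its level was 3.29 FPKM (2.76 to 3.82) in the Lsd1-RIP library and 1.61 FPKM (1.27 to 1.95) in the IgG-RIP library. That is 2.04-fold higher (1.57 to 2.66), with a log2 ratio of 0.72 (0.46 to 0.97). The ratio of Utx was close to that of lid although the gene rested on fewer fragments, 155 in the Lsd1-RIP and 90.9 in the IgG-RIP library.

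The paralogs of the KDM4 group, both on chromosome arm 2R, differ 9.84-fold in locus span, and their ratios could not be told apart by their intervals. Kdm4B (2R:13176553-13198337, 21785 nt) had 3.94 FPKM (3.31 to 4.57) in the Lsd1-RIP library and 1.69 FPKM (1.31 to 2.06) in the IgG-RIP library. This was the largest plain fold of the family, 2.33 (1.77 to 3.07), and the highest log2 ratio, 0.88 (0.60 to 1.15). The Kdm4B locus shares 13534 nt with that of CG17724 and takes in all 10405 nt of seq. By approximate fragments the log2 ratio of Kdm4B was 0.75 taken alone and 0.53 (0.21 to 0.84) with the fragments of all 3 genes summed. Kdm4A (2R:7922775-7924988, 2214 nt), whose product also binds HP1a, had 2.61 FPKM (1.99 to 3.24) in the Lsd1-RIP library and 1.30 FPKM (0.887 to 1.70) in the IgG-RIP library. Its log2 ratio was 0.65 (0.30 to 1.01), with only 70.4 fragments in the Lsd1-RIP and 40.2 in the IgG-RIP library behind it. The ratio of Kdm4B exceeded that of Kdm4A by 0.22 with an interval of -0.23 to 0.67, which holds 0 and leaves room for a sizeable difference either way.

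Jarid2 (3L:9477038-9486530), the PRC2 subunit gene, had the next highest ratio. Its FPKM was 4.07 (3.67 to 4.46) in the Lsd1-RIP library and 1.84 (1.60 to 2.07) in the IgG-RIP library. That gave a 2.22-fold difference (1.89 to 2.60) and a log2 ratio of 0.84 (0.67 to 1.0). With 430 fragments in the Lsd1-RIP library, 248 in the IgG-RIP library and a single RefSeq transcript, it is among the best measured members. The locus pall, which overlaps it by 83 nt, was listed at 0 in both libraries.

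NO66 (X:4319438-4321745) was by far the most abundant member and had one of the smaller ratios. It had 14.6 FPKM (13.1 to 16.1) in the Lsd1-RIP library and 9.97 FPKM (8.85 to 11.1) in the IgG-RIP library. Of the 5877 eligible protein-coding genes, 89.2% had a lower level in the Lsd1-RIP library and 86.4% in the IgG-RIP library. The fold was 1.46 (1.26 to 1.70) and the log2 ratio 0.51 (0.30 to 0.71). By approximate fragments, scaled by the library sums without ribosomal RNA, the log2 ratio of NO66 was 0.07 (-0.15 to 0.29), an interval that holds 0. The median of all genes on that fragment scale was -0.0046, against 0.32 by FPKM. On the same scale lid was at 0.42 (0.20 to 0.63), Utx at 0.56 (0.18 to 0.94), Kdm4A at 0.60 (0.03 to 1.17) and Jarid2 at 0.58 (0.35 to 0.81), each with an interval above 0.

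Kdm2 (3R:9052495-9063245) was the eligible member closest to the typical gene by FPKM with the pseudocount of 1, and NO66 was closest by fragments. With a pseudocount of 0.1 NO66 was also the closer by FPKM, at 0.54 against 0.60 for Kdm2 and 0.42 for the all-gene median. The FPKM of Kdm2 was 2.497 (2.14 to 2.86) in the Lsd1-RIP library and 1.61 (1.34 to 1.88) in the IgG-RIP library, a 1.55-fold difference (1.24 to 1.94). The log2 ratio, 0.42 (0.21 to 0.64), holds the all-gene median in its interval. Its locus shares 114 nt with beag, and with the fragments of the pair added together, the log2 ratio was 0.14 (-0.14 to 0.43), against 0.25 for Kdm2 alone.

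Kdm3 (3R:9516007-9520938), the H3K9 demethylase gene, stood apart from the rest. It was at 0.897 FPKM (0.592 to 1.20) in the Lsd1-RIP library and 0.938 FPKM (0.651 to 1.23) in the IgG-RIP library, so the bounds largely coincide. The log2 ratio was -0.03 (-0.35 to 0.28), on 34.6 fragments in the Lsd1-RIP and 42.8 in the IgG-RIP library. All 4932 nt of its locus lie inside that of CG8176, which starts at the same base. CG8176 had 3.65 FPKM in the Lsd1-RIP library and 1.99 FPKM in the IgG-RIP library, a log2 ratio of 0.63 (0.42 to 0.85). How the fragments of the shared stretch were divided cannot be told from gene totals. With the fragments of Kdm3 and CG8176 added together, the log2 ratio was 0.35 (0.08 to 0.63), against -0.51 for Kdm3 alone. Of the summed fragments, CG8176 held 239 of 273 in the Lsd1-RIP and 142 of 185 in the IgG-RIP library. The sum therefore follows CG8176 and gives no ratio for Kdm3 itself. The part of that division in the low value of Kdm3 was not tested.

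The order of the levels was the same in both libraries for the top 5 members: NO66, lid, Jarid2, Kdm4B and Utx. NO66 and lid each stood clear of the next gene by their deposited bounds in both. Neighbours in the order from Jarid2 down to Kdm2 and Kdm4A had overlapping bounds. Kdm3 was lowest in both libraries, with bounds clear of those of Kdm2 in the Lsd1-RIP library but overlapping those of Kdm4A in the IgG-RIP library. Among the 28 pairs of members, the difference of log2 ratios had an interval that left out 0 in 12. Kdm3 was the lower gene in 7 of these, and the other 5 were lid, Kdm4B and Jarid2 above Kdm2, and Kdm4B and Jarid2 above NO66. The smallest of the 5 was 0.31 (0.04 to 0.58), lid over Kdm2. These intervals are not adjusted for the number of pairs, nor the differences for locus span. Beside genes of like span, described next, Kdm4B and Jarid2 each lay 0.37 above the median and NO66 0.24.

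Most members are long genes, and in these libraries the ratio moved with locus span. Among the 588 shortest eligible protein-coding genes (228 to 1004 nt) the median log2 ratio was 0.18, and among the 588 longest (15270 to 215672 nt) it was 0.52. Each member was therefore set beside the eligible protein-coding genes whose locus span stood to its own in a ratio of at most 5 to 4 either way. Kdm4A lay 0.40 above the median of 1103 such genes, a 1.32-fold margin, and 92.0% of them were lower. Jarid2 exceeded its like-span median by 0.37, with 376 of 411 genes lower, and Kdm4B also by 0.37, with 197 of 216 lower. The margins of Utx and lid were 0.28 and 0.27, with 535 of 613 and 338 of 397 genes lower. NO66 was 0.24 above the median of its like-span genes, with 890 of 1090 lower. Kdm2 lay 0.05 below its median of 0.47, in the middle of its 384 like-span genes. Kdm3 was 0.42 below, and only 39 of 760 genes of like span were lower than it.

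For 6 of the 7 eligible members the whole interval lay above the like-span median, a position taken by 13.3% of the 5877 eligible protein-coding genes. The exception was Kdm2. Kdm3, not eligible, had its whole interval (upper end 0.28) below its like-span median of 0.39. It stayed so under the other backgrounds below, except on the fragment scale. Intervals above the like-span median were not particular to the demethylases. Among eligible genes they were found for 6 of 9 methyltransferases (Su(var)3-9, at 0 in the IgG-RIP library, among them) and 4 of 6 PRC2 genes. The lid complex had 2 of 8, Kdm2 partners 1 of 4 and the Utx complex 0 of 7. The margins of the members were small, with a median of 0.28 over the 7 eligible. Their count depended on the background chosen. It was 6 with span within 1.5-fold (13.4% of genes), and also with span and mean FPKM both within 1.5-fold (13%). With span and mean fragments both within 1.5-fold it was 5, since the interval of lid then held the median (12.2%). With implied transcript length, the fragments per unit of FPKM, in place of span it was 4, since those of Kdm4A and NO66 held it (14.5%). The margins of Jarid2, lid, Kdm4A and NO66 were then smaller, at 0.19, 0.18, 0.34 and 0.20. Those of Utx and Kdm4B were larger, at 0.31 and 0.49, and Kdm2 was at -0.09. On the fragment scale the count was 5, without NO66 (11.7%). Utx, Kdm4B and Jarid2 had intervals above the median under all 6 backgrounds. For Kdm4B this was not kept once the fragments of its neighbours were added: summed with CG17724 and seq, its interval of 0.21 to 0.84 held the like-span median of 0.25 on the fragment scale.

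**Figure D2:**
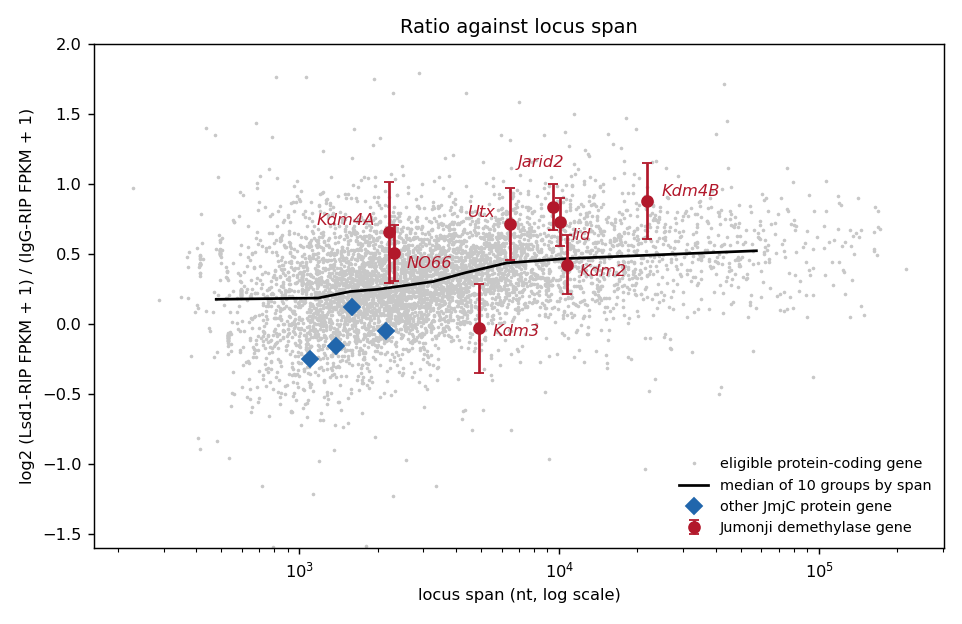
Log2 ratio of Lsd1-RIP over IgG-RIP FPKM against locus span (log scale) for eligible protein-coding genes (grey), the 8 demethylase genes with their intervals (red circles, Kdm3 included although under the minimum) and 4 other JmjC protein genes (blue diamonds). The black line joins the medians of 10 groups of genes by span, and 38 genes lie outside the limits of the ratio axis.

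**Figure D3:**
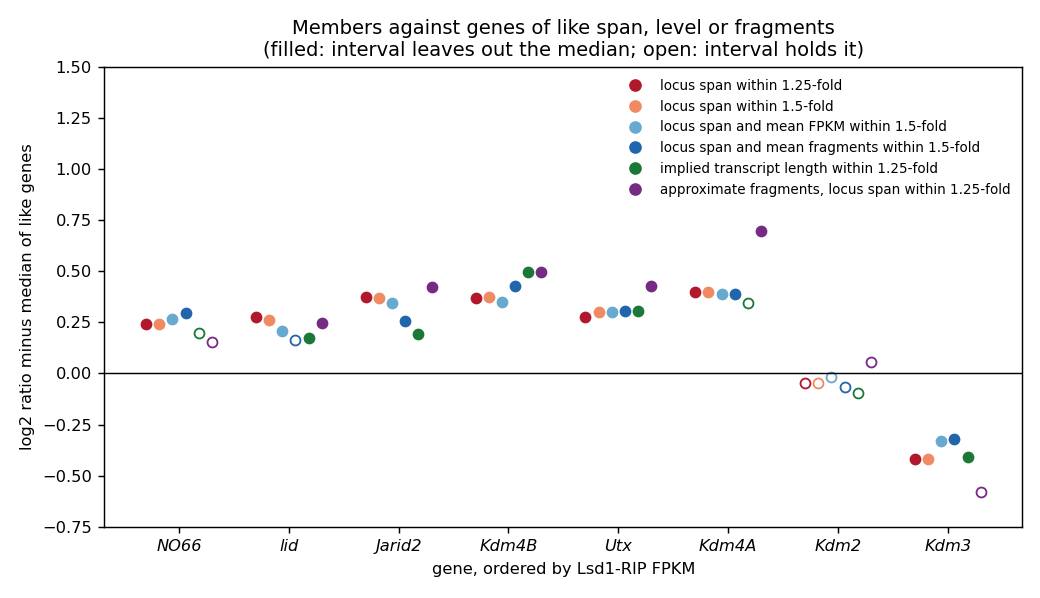
Log2 ratio of each member minus the median of like genes, under 6 definitions of like genes, 1 colour each. Filled points mark intervals that leave out the median and open points intervals that hold it. Utx, Kdm4B and Jarid2 are filled and above 0 throughout, Kdm2 is open throughout, and Kdm3 lies below 0, filled except on the fragment scale.

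Genes of other JmjC proteins had ratios below the all-gene median. Of the 5 listed (PSR, JMJD4, JMJD5, JMJD7 and HSPBAP1), 4 were eligible and none lay above the all-gene median. Their median log2 ratio was -0.10. PSR, whose mammalian counterpart JMJD6 hydroxylates lysines of splicing proteins, was highest at 0.12 with 9.09 FPKM in the Lsd1-RIP library and 8.30 FPKM in the IgG-RIP library. JMJD7 was lowest at -0.25 with 1.59 FPKM in the Lsd1-RIP library and 2.07 FPKM in the IgG-RIP library. HSPBAP1 was listed at 0 in both. These are short genes, the longest being JMJD4 at 2163 nt, and each of the 4 intervals held its own like-span median. JMJD4 has nearly the span of Kdm4A and NO66, and its ratio was -0.05. Kdm4A exceeded it by 0.70 (interval 0.15 to 1.26) and NO66 by 0.56 (0.09 to 1.02), with only 36.6 fragments for JMJD4 in the Lsd1-RIP and 45.6 in the IgG-RIP library.

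The eligible histone methyltransferase genes that place the marks on H3K4, H3K9, H3K27 and H3K36 ran from -0.03 to 1.17 on the log2 scale, leaving out Su(var)3-9. The 7 eligible demethylases ran from 0.42 to 0.88, with Kdm3, under the minimum, at -0.03. Of 10 genes, 9 were eligible, with 7 of them above the median of all genes and a list median of 0.70. At 2-fold or more were trx, a Trithorax-group H3K4 methyltransferase gene, at 1.17, and Su(var)3-9 at 2.17. Su(var)3-9 had 3.49 FPKM in the Lsd1-RIP library but 0 in the IgG-RIP table. It lies within the locus of eIF2gamma, and the summed fragments of both gave a log2 ratio of 0.06, so no fold is drawn for it. NSD was listed at 0 in both libraries. E(z), the H3K27 methyltransferase gene of PRC2, was lowest at -0.03.

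For enzymes acting on the same mark, some differences of log2 ratio had intervals that left out 0 and others did not. For H3K4, lid at 0.73 was set beside Set1 at 0.81, and the difference of -0.09 had an interval of -0.34 to 0.17. The ratio of lid was 0.44 below that of trx (difference -0.44, interval -0.65 to -0.22) and 0.26 above that of trr (0.02 to 0.50). For H3K27, Utx exceeded E(z) by 0.74 (0.32 to 1.16). For H3K36, Kdm4A at 0.65 and Set2 at 0.70 differed by -0.04 (-0.44 to 0.35), and Kdm4B exceeded Set2 by 0.18 (-0.14 to 0.50). Kdm2 lay below Set2 by a difference of -0.27 (-0.54 to -0.00048), which barely leaves out 0, and below ash1 by -0.24 (-0.52 to 0.04). For H3K9, Kdm3 lay below G9a, which was at 0.70, by a difference of -0.74 (-1.08 to -0.39), with the reservation about CG8176 given above. Set1 overlaps MED21, which was at 0 in the Lsd1-RIP table, and with their fragments added the log2 ratio was 0.36, against 0.62 for Set1 alone. Likewise trr overlaps CG14806, and with their fragments added the log2 ratio was 0.01, against 0.18 for trr alone. These differences, and those given below for partner genes, are not adjusted for locus span.

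Genes of proteins that work with the demethylases were mixed. Among 8 genes of proteins linked to lid, 4 were above the all-gene median, with a list median of 0.34. Sin3A, the scaffold of a deacetylase complex, was the only one past 2-fold, at 1.16, with 14.3 FPKM in the Lsd1-RIP library and 5.85 FPKM in the IgG-RIP library. Its locus overlaps ClC-b and lncRNA:CR30055, and by fragments its log2 ratio was 0.77 alone and 0.52 with all 3 genes added, under 2-fold on that scale. The histone chaperone gene Nap1 was lowest at -0.08. Of the Utx complex, 7 of 8 genes were eligible and 3 lay above the all-gene median (list median 0.31), with wds highest at 0.52. Lpt, the PHD-finger partner of trr in this complex, was lowest at -0.61 (interval -0.85 to -0.38). It had 1.44 FPKM in the Lsd1-RIP library and 2.73 FPKM in the IgG-RIP library. Utx thus exceeded the gene of its complex partner Lpt by 1.33 (0.98 to 1.68), the widest of the 16 differences computed between a member and another gene.

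In PRC2, 6 of 7 genes were eligible and 4 lay above the all-gene median, for a list median of 0.66. Pcl, an accessory subunit gene, was highest at 0.91 and close to Jarid2, which differed from it by -0.08 (-0.34 to 0.19). The catalytic subunit gene E(z) was lowest, and Jarid2 exceeded it by 0.86 (0.50 to 1.23). For Kdm2, 4 of 6 Polycomb-group genes were eligible, 3 above the all-gene median, with ph-d highest at 0.84 and Sce, the ubiquitin ligase gene, lowest at -0.0034. Over these lists, 24 of 28 different partner genes were eligible, with 14 above the median of all genes and a median of 0.46. For 7 of the 24 the interval was above the like-span median and for 4 below it. Among all eligible protein-coding genes the shares were 13.3% above and 12.5% below.

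**Figure D4:**
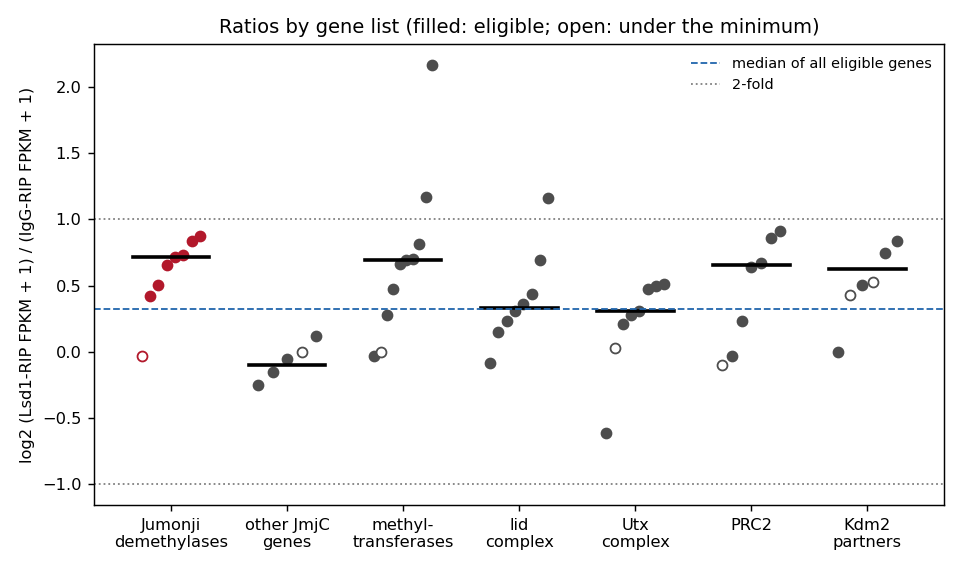
Log2 ratio of Lsd1-RIP over IgG-RIP FPKM by gene list, 1 point per gene, filled where eligible and open where under the minimum. Bars are medians of eligible genes, the dashed line is the all-gene median of 0.32 and dotted lines mark 2-fold. The demethylases and methyltransferases have medians of 0.72 and 0.70, and the other JmjC genes -0.10.

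The mRNA of Lsd1 itself lay where most genes lay. Su(var)3-3, which encodes it, had 1.39 FPKM in the Lsd1-RIP library and 0.926 FPKM in the IgG-RIP library. With the pseudocount of 1 its log2 ratio was 0.31 (0.04 to 0.59), below that of each eligible JmjC member. The interval overlapped those of 5 of the 7, and those of Kdm4B and Jarid2 lay above it. The rank depended on the scale. As a plain ratio of FPKM, Su(var)3-3 was above NO66 and below the other eligible members. By approximate fragments taken alone the order was the same, with Su(var)3-3 at 0.146 and NO66 at 0.068. CoRest, the gene of the corepressor partner of Lsd1, was at 0.30 by FPKM with the pseudocount of 1.

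By the 2 FPKM values alone, the gene outside the family most like Kdm4B was CG6051, with 3.81 FPKM in the Lsd1-RIP library and 1.58 FPKM in the IgG-RIP library, at a distance of 0.07 on the log2 scale. It was chosen as the nearest of 216 eligible protein-coding genes of like span. With 2 libraries compared, such likeness describes levels only.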

How the data were processed

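Ovarian RNA from 1 Lsd1-RIP and 1 IgG-RIP library was measured. Per the file headers, the authors deposited gene FPKM with lower and upper bounds and a status. Tools and build in the submitters' processing notes are Cufflinks, SAMtools 0.1.18.0, Bowtie2 2.0.6.0 and dm6, their roles unstated. The annotation is not given in the sources used here. Per the labels' protocols, the kit does not mark strand and poly(A) selection was skipped. Deposited starts count from 0 (17476 of 17564 genes matched by name and chromosome start 1 base later in RefSeq), so 1 was added. RefSeq names are from Release 6 plus ISO1 MT, which matched 17655 of 17720 rows.

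Python 3.11.15 with pandas 2.3.3 was used. The bounds were read as the FPKM plus or minus 2 standard deviations of a fragment count, which gives that count. They are approximate: 41.7% of the 7225 counts from 0.5 to 30 were whole to within 0.02. Fragment ratios over all genes used those with 20 or more in each library. The measures were also run on simulated counts with known changes, their bounds built by the same reading. That run held no trend with span, so it does not check the reading of the bounds or the like-span margins. Members and lists were chosen with earlier results of these data known. Named genes were all members, the extremes of each list, those past 2-fold and enzyme counterparts. Added later, with values in view, were the like-span interval counts, 2 of their backgrounds, the pair differences and Lpt as a counterpart. The gene nearest to Kdm3 in level is not reported here.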

Additional observations from a re-analysis of the deposited data

How the results depend on the processing

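No paired analysis was possible because each group held 1 library. By the same lack, no library could be left out. With a pseudocount of 0.1, 2 members (Kdm4B at 1.17 and Jarid2 at 1.11) reached 2-fold, as did 476 genes upward (7.9%) against 128. Centring left 62 genes 2-fold higher and 63 lower, so the share of higher calls depends on scaling, and no member was called. With no minimum FPKM 66 genes were 2-fold lower; with a minimum of 5, 70 were higher and 11 lower, and NO66 was the 1 member left, above the median. List medians with a pseudocount of 0.1 were 0.96 for the demethylases, 0.90 for methyltransferases, 0.90 for PRC2 and 0.96 for Kdm2 partners, against an all-gene median of 0.42. Centred, they were 0.39, 0.37, 0.33 and 0.30, with -0.017 for the Utx complex, 0.011 for the lid complex and -0.017 for Lsd1 and CoRest. Of 35 values of single members under alternatives, 17 moved by more than their interval. Part of this count is a change of zero point: centring takes the same 0.32 from every gene, and it moved each member but Kdm4A. The fragment scale also has another zero point, with an all-gene median of -0.0046.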
